A study of Saccharomyces cerevisiae with 24 samples.

Results

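The regions described here are 418 stretches of yeast protein-coding sequence in the study's list of Yrr1 ChIP regions, each overlapped by a peak of ChIP over input. They are 418 of the 1711 regions that the authors tabulated, of which 1692 are nuclear. Each has its midpoint more than 50000 bp from a chromosome end and inside an open reading frame (ORF) that encodes no cytosolic ribosomal protein, overlaps no tRNA, small nucleolar RNA or rRNA gene, and is overlapped by at least 1 MACS2 peak of ChIP over input (parameter set mn). They were therefore selected on measured values, the deposited peak calls, and the numbers of peaks below are a description with no test. They lie in 409 genes, 8 of which hold more than 1 region, and 12 regions are in retrotransposon genes. The region nearest to the distance limit inside it was SMC2, at 50104.5 bp from a chromosome end, and the nearest outside was WSC4, at 49527.5 bp. The weakest best peak belonged to ENA5, with a −log10 q of 1.31, the median best peak had 2.81 and the strongest, at TEF2, had 11.3.

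The cells were of Saccharomyces cerevisiae strain S96 without their own YRR1 gene (yrr1Δ), and all groups carried this deletion together with a Myc-tagged introduced allele. The allele was YRR1_YJM789 (from strain YJM789), YRR1_S96 (from S96 itself) or YRR1_S96-I775E (the S96 allele with 1 amino acid change). Cultures were kept for 2.5 h in YPD, a rich medium, with or without 0.25 µg/ml of 4-nitroquinoline-N-oxide (4NQO), a drug that damages DNA. Each of the 6 groups had 3 anti-Myc ChIP libraries and 1 input library that served all 3, so a feature of the input and a feature of the group cannot be told apart. The labels speak of triplicate cultures in one place and of duplicate cultures in another, so the p-values rest on the spread among libraries, part of which may be technical. Read depth is unknown, and an untagged strain was not analysed here.

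Yrr1 is a zinc cluster transcription factor that activates genes of pleiotropic drug resistance, among them the transporter gene SNQ2. Factors of this family bind short sequences rich in CGG in promoters, and a bound promoter gives a narrow ChIP summit over its recognition sequence. Signal over the bodies of strongly transcribed genes, spread along the ORF, is also known from yeast ChIP with many unrelated tagged proteins.

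The published Yrr1 recognition sequence has 9 bases, A or T, then CCG, then C or T, 2 bases that are G or T and 2 that are A or T, and was searched on both strands. Sequences are of the reference assembly R64 (RefSeq), which holds the nuclear sequence of sacCer3, and matches are in capitals. The first pair comes from promoter and noncoding sites where the strongest point of ChIP minus input coverage stayed near the match over the libraries, and serves as a yardstick. For SNQ2 the window is chrIV:465380-465438 (plus strand), with the match 2 bp from the median strongest point, and for IRT1, a noncoding RNA gene, it is chrX:607324-607382 (minus strand), with the match 0 bp away.
SNQ2 promoter: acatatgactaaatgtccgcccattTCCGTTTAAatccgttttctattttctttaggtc
IRT1: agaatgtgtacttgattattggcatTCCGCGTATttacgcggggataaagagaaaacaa
The next pair comes from coding regions that hold a match and have a high mean rise over libraries. For TEF1, one of 2 genes of translation elongation factor EF-1 alpha, the window is chrXVI:701433-701491 (plus strand), 45 bp from the median strongest point. The same letters recur in its near-identical copy TEF2. For FBA1, the glycolytic aldolase gene, it is chrXI:326665-326723 (plus strand), 72 bp away.
TEF1: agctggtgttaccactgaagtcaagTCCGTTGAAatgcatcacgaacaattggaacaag
FBA1: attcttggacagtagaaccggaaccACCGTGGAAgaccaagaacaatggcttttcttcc
The last pair shows the 200 bases around the median strongest point of ASK1 (chrXI:340611-340810, minus strand, GC content 43.0%), the coding region with the most libraries with a peak that has matches near this point, and of PMT1 (chrIV:287124-287323, plus strand, GC content 50.5%), whose rise differed between groups. ASK1 holds 2 matches in a run of thymines upstream of its start codon. PMT1 holds 1, read here from the other strand, 16 bp from the median strongest point.
ASK1: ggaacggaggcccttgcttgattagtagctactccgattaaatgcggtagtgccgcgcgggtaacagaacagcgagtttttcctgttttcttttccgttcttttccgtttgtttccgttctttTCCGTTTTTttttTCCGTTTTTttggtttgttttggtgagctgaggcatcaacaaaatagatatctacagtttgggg
PMT1: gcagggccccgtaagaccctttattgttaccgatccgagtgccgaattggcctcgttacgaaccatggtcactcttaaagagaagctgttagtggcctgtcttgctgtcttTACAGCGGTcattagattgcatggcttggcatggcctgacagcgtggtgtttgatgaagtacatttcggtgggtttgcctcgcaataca

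Most coding regions met the rule through a pair of libraries. A peak lay over 294 of the 418 regions in YJM789 4NQO replicate 1 and over 222 in replicate 2, but over 4 in replicate 3 of the same group. The 3 YJM789 libraries in YPD had 0, 0 and 4 such regions and the S96 libraries in YPD 1, 9 and 11. S96 in 4NQO had 6, 37 and 25, S96-I775E in YPD 2, 38 and 6, and S96-I775E in 4NQO 14, 4 and 5. Over all 1711 regions the YJM789 libraries had 480, 392 and 29 regions with a peak in 4NQO and 6, 7 and 12 in YPD. The S96 libraries had 20, 110 and 174 in YPD and 39, 98 and 151 in 4NQO. Those of S96-I775E had 34, 106 and 62 in YPD and 50, 33 and 29 in 4NQO. The uneven YJM789 4NQO replicates were therefore not particular to coding regions. Of the coding regions, 378 (90.4%) had a peak in replicate 1 or 2 of YJM789 in 4NQO, 138 (33.0%) in both, and 314 (75.1%) in no other library. Only 104 regions (24.9%) had a peak in some other library, 40 of them (9.57%) in none of that pair. A peak in a single library brought in 258 regions (61.7%), whereas 24 (5.74%) had a peak in 4 libraries or more and the highest number was 8 of 18. Peaks in 3 or more of the 6 groups were found at 20 regions and in more than 4 groups at none. Fold enrichment was low: with a fold of at least 2 required, the regions with a peak in 2 of 3 YJM789 4NQO libraries went from 138 to 16, and those of S96 in 4NQO from 12 to 0.

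**Figure D1:**
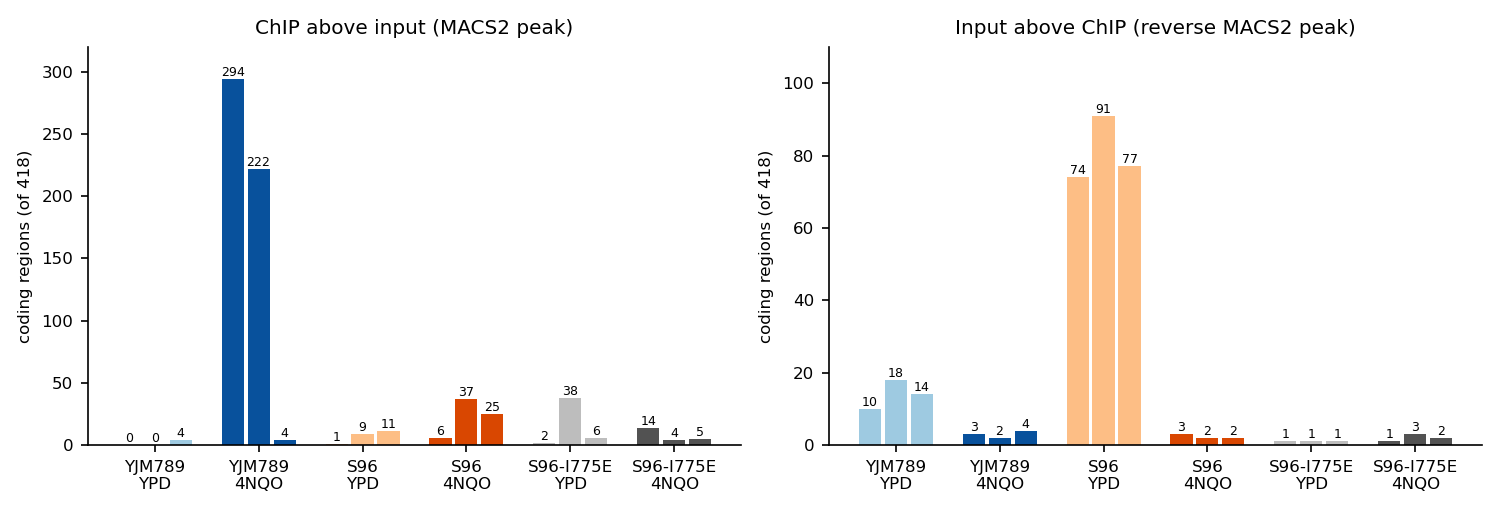
Number of the 418 coding regions overlapped by a MACS2 peak in each of the 18 ChIP libraries (bars; 3 libraries per group), for ChIP over input on the left and for the reverse test, input over ChIP, on the right. Replicates 1 and 2 of YJM789 in 4NQO reached 294 and 222 on the left, and the 3 libraries of S96 in YPD reached 74, 91 and 77 on the right.

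Several of the regions with peaks in the most libraries lie in genes known for strong expression in growing yeast. YEF3, translation elongation factor EF-3 (chromosome XII 636722 to 639329), had a peak in 8 libraries. Its fold enrichment was 2.49, 2.31 and 1.97 in the YJM789 4NQO libraries, 1.71 in 2 S96 4NQO libraries, 1.75 in 1 S96-I775E library in YPD, and 1.79 and 1.61 in 2 in 4NQO. No library in YPD other than that one had a YEF3 peak. ADH1, the main alcohol dehydrogenase of fermentation (XV 158994 to 161355), had folds of 2.17 and 2.12 in YJM789 in 4NQO, 1.68 and 2.28 in S96 in 4NQO, 1.68 in S96-I775E in YPD, and 2.18 and 1.65 in S96-I775E in 4NQO. TEF1 (XVI 700514 to 702507) and NSR1, a nucleolar protein of ribosome synthesis, also had a peak in 7 libraries. TEF2, FMP25, a mitochondrial protein gene, and the plasma membrane proton pump PMA1 had a peak in 6. Another 12 of the top 20 had a peak in 4 or 5 libraries and included ILV5, ENO2, CDC19, PDC1, TDH3, IMD4 and ILV3. Since 63.2% of the 50-base words of the TEF1 region and 59.4% of those of TEF2 recur elsewhere in the genome, reads of these genes cannot be assigned to one copy. In all, 24 regions were over 50% non-unique and 369 had no such word.

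ASK1, a subunit of the DASH complex that couples kinetochores to microtubules (XI 339675 to 341066), also had a peak in 8 libraries. Its peaks, with folds of 2.1, 2.35 and 1.81 in YJM789 in 4NQO, 1.65, 1.86 and 1.77 in S96 in 4NQO, 1.51 in 1 YJM789 YPD library and 1.62 in 1 S96 YPD library, were found with both natural alleles and in no S96-I775E library. Its median strongest point lay upstream of the start codon, which held for 3 of the 418 regions (ASK1, CLN3 and YCR024C-B). The rise at ASK1 was 28.4, 46.4 and 47.2 for YJM789 in YPD, 36.8, 49.4 and 26.5 in 4NQO. The S96 libraries had 76.7, 49.5 and 46.4 in YPD, then 42.8, 47.7 and 52.1 in 4NQO. For S96-I775E it was 24.2, 38.3 and 28.8 in YPD and 17.4, 28.2 and 27.1 in 4NQO. The S96-I775E libraries lay below all S96 libraries in both media, with log2 differences of −0.89 (SE 0.31) in YPD and −0.97 (SE 0.31) in 4NQO on the scale described below. They are a description, since peaks in S96 libraries helped to choose the region, and neither was among the called differences.

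The authors gave each region 3 linked values per library: the ChIP minus input coverage at its strongest point (coverage), the mean of that score over the surroundings (background), and their difference (rise). Coverage of the coding regions was highest in the pair of libraries with the most peaks. Median coverage over the coding regions was 64.5, 62 and 37.8 in the YJM789 4NQO libraries, against 27.9, 20.4 and 24.6 in YPD. For S96 it was 18.1, 15.3 and 17.3 in YPD and 30.2, 40.5 and 35.1 in 4NQO. The S96-I775E libraries had 33.3, 40.7 and 30.8 in YPD, then 42.6, 36.8 and 40.0 in 4NQO. The background moved in parallel. It was 29.3, 26.1 and 12.1 for YJM789 in 4NQO and negative in every S96 YPD library, at −12.5, −16.7 and −14.2, so that there the input exceeded the ChIP around the regions. The rise, from which that background is subtracted, had medians between 21.9 and 35.1 over all libraries. The authors also gave a reverse rise, of input minus ChIP coverage, with medians of 23.5 to 36.5. It was 36.5 and 35.7 in YJM789 4NQO replicates 1 and 2. It was 29.5, 29.9 and 30.6 for S96 in YPD and 23.5, 26.2 and 23.9 for S96-I775E in YPD. Libraries with a high median rise thus also had a high median reverse rise, and the rise is not free of differences between libraries. Coverage was highest in the YJM789 4NQO group for 351 coding regions (84.0%), against 44.7% of the 1274 other nuclear regions. For the rise the shares were 157 (37.6%) and 27.5%, with S96 in YPD highest at another 115 (27.5%). Peaks in replicate 1 or 2 of YJM789 in 4NQO chose 378 of the coding regions but not the other nuclear regions. The high values of that group, and its shares, are therefore a description with no test.

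**Figure D2:**
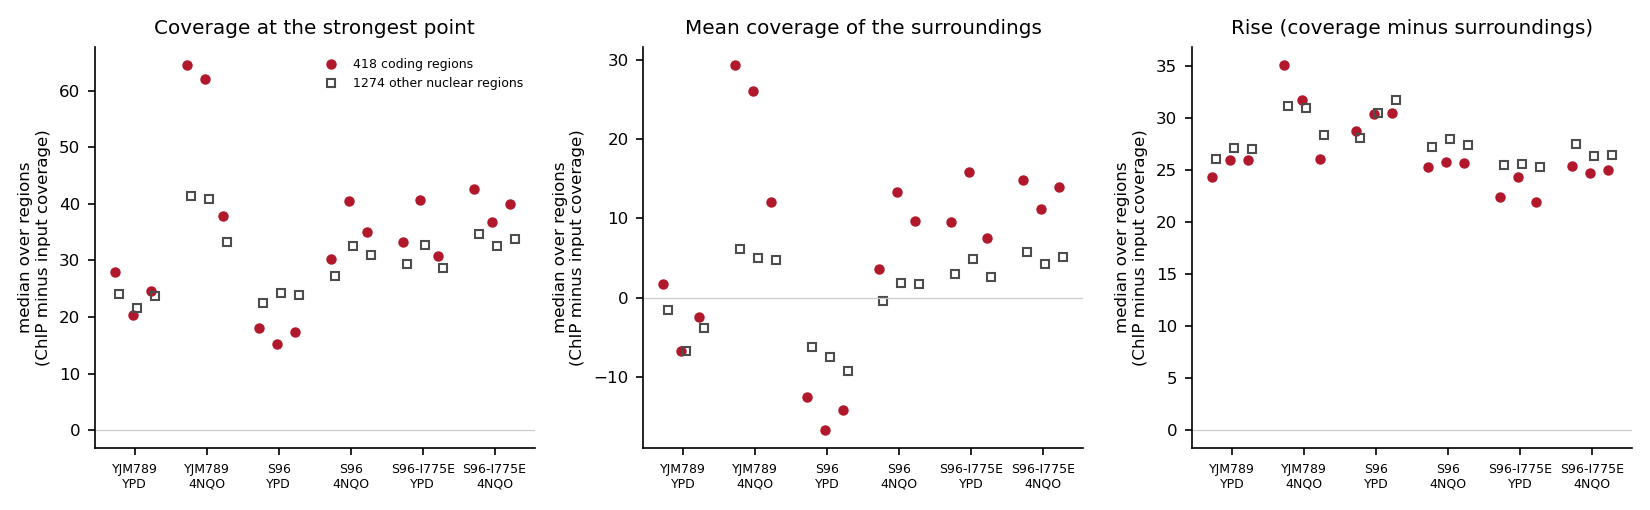
Median over regions of the coverage at the strongest point, the mean coverage of the surroundings and the rise, in units of ChIP minus input coverage, for each of the 18 libraries (circles, 418 coding regions; squares, 1274 other nuclear regions). Coverage and surroundings of the coding regions were highest in YJM789 4NQO replicates 1 and 2 and lowest in S96 in YPD, while the medians of the rise stayed between 21.9 and 35.1. Peaks in YJM789 4NQO replicates 1 and 2 chose most of the coding regions.

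The reverse MACS2 test, which calls input above ChIP, had peaks at 74, 91 and 77 of the coding regions in the S96 YPD libraries, 10, 18 and 14 in the YJM789 YPD libraries and 1 to 4 in every library of the other 4 groups. In at least 2 S96 YPD libraries such a reverse peak lay over 78 coding regions (18.7%), and 0 of these had a ChIP peak in any S96 YPD library. With any library counted, 111 coding regions (26.6%) had a reverse peak. The share of all regions with a reverse peak is not given here, so these counts are not read as particular to coding regions. ADH1, with ChIP peaks in 7 libraries, had reverse peaks in 9. Rise values were also missing most often for S96 in YPD, at 40, 48 and 49 regions against 2 to 27 in the libraries of other groups.

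Replicate 3 of YJM789 in 4NQO is described here over the 314 regions with a peak in replicate 1 or 2 and in no other library. The lack of a peak in replicate 3 was a condition of this choice and it shares the input of the group, so its values are no independent check. Among the 266 with all values, its coverage was below that of both replicates in 247 (92.9%), against 55.6% of other nuclear regions. It was still above all 3 YJM789 YPD libraries in 187 (70.3%; other nuclear regions 56.1%), but above all 3 S96 4NQO libraries in 74 (27.8%; others 33.0%). For the rise these shares were 31.6% over the YPD libraries and 25.9% over S96 in 4NQO, against 36.5% and 29.7% of other nuclear regions. Median coverage of these regions was 64.9 and 63.2 in replicates 1 and 2, 37.3 in replicate 3, 22.5 in YJM789 in YPD and 34.5 in S96 in 4NQO.

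With the ORF cut into 3 equal stretches, midpoints lay in the first for 173 regions (41.4%), in the middle for 162 (38.8%) and in the last for 83 (19.9%). For the 389 coding regions that meet the same rule without a ChIP peak the shares were 47.0%, 27.8% and 25.2%. Here and below, without a ChIP peak means without a MACS2 peak of set mn. Other deposited peak calls at these regions were not counted. The median region was 623 bp long (400 to 2905) against 511 bp without a ChIP peak. At 119 genes it held at least 90% of the ORF and 112 regions lay wholly inside one. The strongest point wandered from library to library. Its SD over the 18 libraries had a median of 177.2 bp, or 28.2% of the region length, where points spread evenly would give 28.9%. No coding region had an SD of at most 10% of its length, as 52 other nuclear regions did, and the lowest SD of a coding region was 11.9%. At SNQ2 the SD was 12.7 bp (1.3%) and at IRT1 13.8 bp (0.9%), at SNG1, a nitrosoguanidine resistance gene, 47.7 bp (4.3%), and at the YRR1 promoter 102.1 bp (14.3%).

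Within a group, however, the strongest points agreed more often. In the coding regions, the points of 2 libraries of the same group were at most 50 bp apart in 36.3% of the comparisons, with a median distance of 96 bp. For libraries of the same medium but another allele the share was 16.6%, and for the same allele in the other medium 14.2%. Other nuclear regions had 42.5%, 23.1% and 21.8%. Libraries of 1 group share an allele, a medium and 1 input library, and these cannot be told apart. All 3 points lay within 50 bp of each other at 61 coding regions in YJM789 in YPD, 77 in YJM789 in 4NQO, 82 in S96 in YPD, 41 in S96 in 4NQO, and 64 in each of the S96-I775E groups. YEF3 and TEF2 were not among them in any group: the points of YEF3 in YJM789 in 4NQO were 311, 397 and 1838 bp from its start codon. NAT2 in S96 in YPD (239 bp in all 3 libraries), CYC3 in YJM789 in 4NQO (201 bp in all 3) and TKL2 in S96 in 4NQO (1369 bp in all 3) were among the closest.

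**Figure D3:**
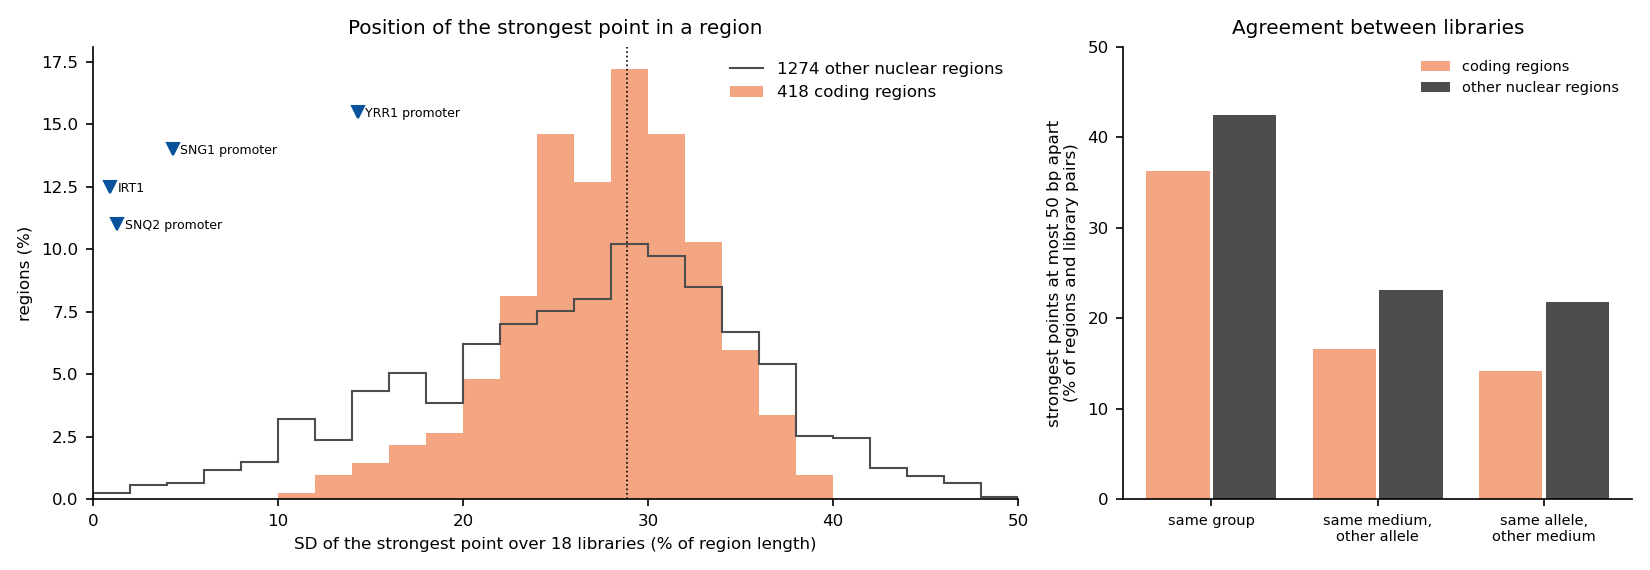
Left, distribution over regions of the SD of the strongest point's position across 18 libraries, as a percentage of region length (filled, coding regions; line, other nuclear regions; dotted line, 28.9%, points spread evenly; triangles, 4 reference sites at arbitrary height). Right, percentage of region and library-pair comparisons in which the strongest points were at most 50 bp apart, 36.3% for coding regions within a group and 16.6% and 14.2% between groups.

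The recognition sequence was found in a similar share of the coding regions and of coding sequence at large. A 600 bp window centred on the region held a match in 78 of 418 regions (18.7%) and in 2266 of 12868 coding windows of the same length over the genome (17.6%). Anywhere in the region, 97 regions held 115 matches. The nearest match was a median of 196 bp from the median strongest point (2 to 1852 bp), and within 50 bp of it in 13 regions: MXR2, PMT1, RIM15, ASK1, FKS1, ERG2, GTO3, ZIM17, WSC2, MET4, RRS1, CPA1 and TEF1. In these 13 the strongest point had an SD of 144.0 to 431.6 bp, against 12.7 bp at SNQ2 and 102.1 bp at the YRR1 promoter. At ADH1 the match lay 1852 bp away, at PDC1 1366 bp, at TDH3 423 bp and at CDC19 380 bp.

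The host genes were richer in GC than all genes, and a minority of them were rich in codons of strongly expressed genes. Of 398 host genes outside retrotransposons, 100 (25.1%) were in the top 10% of the codon adaptation index, a measure of likeness to ribosomal protein gene codon use. Host genes of coding regions without a ChIP peak had 16.7%. In the top 1% were 31 host genes, which is 53.4% of all 58 such genes, against 1 host gene of regions without a ChIP peak. The median index was nevertheless 0.221 against 0.215 over all 5772 genes, since most host genes were ordinary in this respect. Median ORF GC content was 44.1% against 39.7% over all genes, and 44.3% against 39.5% outside the top 10% of the index. Host genes of coding regions without a ChIP peak had a median of 41.3%. The 104 regions of the top 10% had a peak outside YJM789 4NQO more often (40.4%) than the other 314 (19.4%) and a peak in only 1 library less often (44.2% and 67.5%), which is a description of the values that chose them. They covered a median of 78.4% of their ORF, against 55.2%.

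Gene groups, listed with results of these data known, fell on both sides of the 6.9% of all genes that hold a coding region. Glycolysis and fermentation had 13 of 27 genes (48.1%), among them ADH1, ENO2, CDC19, PDC1, TDH3, FBA1, PGK1 and TPI1. Translation factors and ribosome-bound chaperones had 21 of 48 (43.8%), with YEF3, TEF1, TEF2, the cap-binding factor CDC33, the nascent chain chaperone subunit EGD1 and EFT2. Histones had 3 of 10 (30.0%), amino acid and nucleotide synthesis 17 of 72 (23.6%; ILV5, IMD4, GLN1 and ADE8 among them), cell wall and mannoproteins 17 of 74 (23.0%; SED1, UTH1, AGA1, TIP1 and ECM33) and transporters 9 of 40 (22.5%; PMA1 and HXT3). General stress genes had 4 of 27 (14.8%), sulfur and one-carbon metabolism 4 of 31 (12.9%) and the Hsp70 and Hsp90 chaperones 2 of 21 (9.52%). Groups tied to Yrr1 or to the drug had 1 or 2 genes each, too few to read as different from the 6.9%. That share counts genes at any distance from chromosome ends, and the rule leaves out promoter regions. Drug resistance targets had 2 of 39 (5.13%), the polyamine exporter TPO1 and YRR1 itself, DNA damage response 2 of 41 (4.88%), the ribonucleotide reductase subunit RNR2 and its inhibitor SML1, and oxidative stress 1 of 32 (3.12%), the peroxiredoxin TSA1. Mitochondrial respiration had 0 of 50. Signal in the YRR1 body cannot be assigned to the genome, because the cells carry an introduced copy.

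Differences between groups were tested with limma on log2(rise + 1) over every region that had 2 or more values in all 6 groups, and called at an adjusted p of 0.05. This took in 370 of the 418 coding regions, and 35 of the 48 left out had too few values in S96 in YPD. All log2 differences below are on that scale, values per library are the rise itself, and the background share is that of all 1350 regions tested. Counts with a library left out have no background share beside them and show only how a count moved. At an unadjusted p of 0.05, between 37 and 88 of the 370 differed in each of the 11 comparisons. Named regions had no overlap between the libraries of the compared groups.

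Between the I775E change and the unchanged S96 allele in YPD, 16 coding regions were lower in S96-I775E (4.32%) and 0 higher, where all regions had 4.96% lower and 1.85% higher. The median log2 difference was −0.35 over coding regions and −0.24 over all. UTH1, a cell wall protein of the SUN family (XI 519459 to 520723), had a rise of 69.9, 68.6 and 64.6 in S96 and 29.2, 24.1 and 27.6 in S96-I775E, a log2 difference of −1.3 (SE 0.3, adjusted p = 0.00937). The uncharacterized gene YGR079W (VII 640659 to 641934) had 61.8, 83.1 and 56.6 against 20.5, 33.4 and 19.6, a difference of −1.44 (SE 0.31, adjusted p = 0.00486). The log2 difference was −1.38 for TIP1, a cell wall mannoprotein, −1.34 for NAT2, −1.32 for GFD2, −1.32 for the vacuolar proton pump subunit VMA3, −1.31 for the bisphosphatase SHB17 and −1.3 for TEF2. Among the others were TDH3, ENO2 and TDH2. By gene group, 3 of 13 glycolytic, 2 of 13 cell wall, 2 of 22 translation factor and 1 of 9 transporter regions were lower, and none of any other group. The high S96 values carried no MACS2 peak in YPD at UTH1 or YGR079W, whose peaks are in YJM789 in 4NQO. The strongest points of UTH1 were 1178, 1194 and 1195 bp from the start codon in S96, and 5, 202 and 1089 bp in S96-I775E. The count was 7 without S96 YPD replicate 2, 9 without replicate 3, 10 without S96-I775E YPD replicate 1 and 10 without replicate 3. Of the named regions, TIP1, UTH1 and YGR079W were called whichever library was left out. With library medians set equal, which moved the median difference of all regions to 0.03, 7 coding regions were lower and 0 higher, with 1.63% and 4.22% of all regions.

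Coverage gave the opposite picture for the same pair of groups. On coverage, 160 coding regions were higher in S96-I775E (43.2%) and 13 lower (3.51%), with 30.0% and 7.7% of all regions. With library medians set equal, 70 were higher (18.9%) and 24 lower (6.49%), with 12.5% and 17.2% of all regions. For NAT2 and GFD2 the coverage difference had the other sign, 16.83 and 13.73 (adjusted p = 0.149 and 0.186).

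Other contrasts that do not involve YJM789 in 4NQO had few calls on the rise. In 4NQO, S96-I775E minus S96 had 1 coding region higher and 1 lower (0.27% each; all regions 1.26% and 0.593%), with medians of −0.06 and −0.03. TKL2, a transketolase, had a rise of 56.1, 53.0 and 37.7 in S96 and 22.6, 12.6 and 14.1 in S96-I775E (log2 difference −1.54, SE 0.34, adjusted p = 0.0102). STE20, a signalling kinase of mating and filamentous growth, had 18, 25.7 and 11.3 in S96 and 35.6, 66.3 and 62.5 in S96-I775E (1.55, SE 0.39, adjusted p = 0.028). The count was 0 without S96 replicate 1 and 1 without S96-I775E replicate 2 or 3, and neither TKL2 nor STE20 kept its call in every such fit. On coverage 11 were higher (2.97%) and 3 lower (0.811%), with 4.44% and 1.41% of all regions. With medians equal these were 11 (2.97%) and 8 (2.16%), with 3.7% and 3.11% of all regions. For S96-I775E minus YJM789 in YPD, 0 were higher and 2 lower (0.541%; all regions 1.48% and 0.667%), with medians of −0.11 and −0.05. They were TIP1, at −1.42 (SE 0.32, adjusted p = 0.0146), and the uncharacterized YJL163C, at −1.21 (SE 0.32, adjusted p = 0.0408). TIP1 had 36.5, 54.7 and 36.8 in YJM789 and 19.3, 12.4 and 14.0 in S96-I775E. Neither stayed called in every fit that left a library out, which had 0 calls without YJM789 replicate 2 or S96-I775E replicate 3 and 1 without each of the others. On coverage the direction turned, with 32 higher (8.65%) and 1 lower (0.27%), and 7.78% and 0.593% of all regions. With medians equal these were 8 (2.16%) and 4 (1.08%), with 1.78% and 1.33% of all regions.

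Between the natural alleles in YPD, 0 coding regions were higher and 6 lower in YJM789 (1.62%), with 0.519% and 1.56% of all regions. The medians were −0.23 and −0.19. GFD2 (III 58909 to 59379) had a rise of 52.5, 54.7 and 55.9 in S96 and 25.9, 12.6 and 16.2 in YJM789 (−1.58, SE 0.37, adjusted p = 0.0215), with strongest points in S96 at 127, 147 and 126 bp from the start codon. UTH1 had 21.3, 31.9 and 25.4 in YJM789 (−1.35, SE 0.3, adjusted p = 0.0137) and YGR079W 25.6, 33.2 and 26.3 (−1.2, SE 0.31, adjusted p = 0.0395). The other 3 were TAE1, a protein methyltransferase, TEF2 and FSH1, a putative hydrolase, with differences of −1.47, −1.12 and −1.14. The S96 YPD libraries are those of the I775E comparison above, and their values stand behind both. The count was 1 without YJM789 replicate 1 or S96 replicate 3 and 0 without YJM789 replicate 3 or S96 replicate 2. With library medians set equal, 0 coding regions were higher and 1 lower (all regions 0.667% and 0.519%). On coverage the direction turned, with 23 higher (6.22%) and 5 lower (1.35%), and 4.15% and 7.11% of all regions. With medians equal these were 31 (8.38%) and 19 (5.14%), with 5.48% and 11.7% of all regions.

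**Figure D4:**
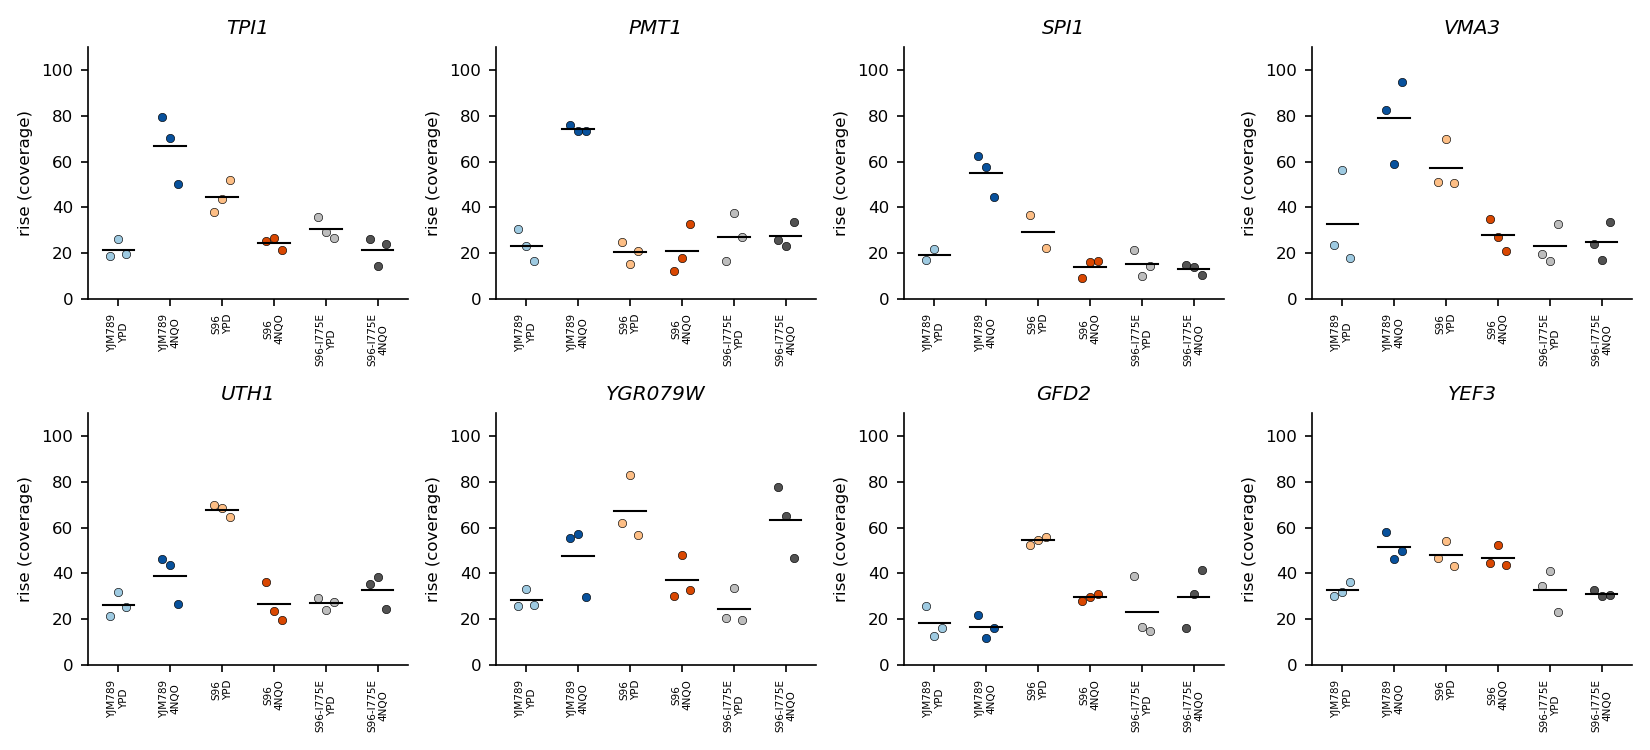
Rise (ChIP minus input coverage at the strongest point, less its surroundings) of 8 named coding regions in each ChIP library (points; replicates 1 to 3 from left to right, a missing point is an empty entry), with the group mean as a line. TPI1, PMT1, SPI1 and VMA3 were highest in YJM789 in 4NQO, UTH1 and GFD2 in S96 in YPD, and YGR079W in S96 in YPD and S96-I775E in 4NQO, whereas YEF3, with the most peaks, stayed between 23.1 and 57.9.

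The response to 4NQO was read within each allele. For S96, 0 coding regions rose and 2 fell (0.541%; all regions 1.41% and 1.19%), with medians of −0.24 and −0.13. UTH1 fell from 69.9, 68.6 and 64.6 to 36.1, 23.7 and 19.4 (−1.37, SE 0.3, adjusted p = 0.00912), and YDR476C by 1.23 (SE 0.31, adjusted p = 0.0251). On coverage 144 rose (38.9%) and 11 fell (2.97%), with 26.1% and 7.56% of all regions. With medians equal these were 68 (18.4%) and 20 (5.41%), with 11.4% and 17.5% of all regions. For S96-I775E, 4 rose (1.08%) and 1 fell (0.27%), with 1.93% and 0.667% of all regions and medians of 0.08 and 0.09. YGR079W rose from 20.5, 33.4 and 19.6 to 77.6, 65.2 and 46.6 (1.34, SE 0.31, adjusted p = 0.0168). The glyceraldehyde-3-phosphate dehydrogenase TDH2 rose by 1.27, STP4 by 1.24 and the IMP dehydrogenase IMD4 by 1.22, and CDC33 fell by 1.37. The S96 count was 1 without S96 YPD replicate 2 or 3 or S96 4NQO replicate 2. The S96-I775E count was 0 without YPD replicate 1 or 4NQO replicate 1, 2 without replicate 2 of either medium and 1 without YPD replicate 3.

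Comparisons with YJM789 in 4NQO use the libraries that chose 378 of the 418 regions, and their values are given as a description with no p. Against YPD, 14 coding regions were higher (3.78%) and 0 lower, with 6.15% and 0.667% of all regions, and medians of 0.27 and 0.25. With library medians set equal there were 7 higher and 2 lower, with 2.89% and 1.19% of all regions. On coverage 276 were higher (74.6%) and 4 lower (1.08%), with 50.9% and 2.81% of all regions. With medians equal these were 100 (27.0%) and 15 (4.05%), with 16.3% and 15.9% of all regions. Against S96 in 4NQO, 10 were higher (2.7%) and 0 lower, with 3.04% and 0.37% of all regions, and medians of 0.24 and 0.18. On coverage 138 were higher (37.3%) and 2 lower (0.541%), with 26.9% and 3.33% of all regions. With medians equal these were 50 (13.5%) and 10 (2.7%), with 8.67% and 9.7% of all regions. Against YJM789, S96-I775E in 4NQO had 0 higher and 17 lower (4.59%), with 0.667% and 3.19% of all regions and medians of −0.28 and −0.18, and with library medians set equal 2 and 9, with 1.63% and 1.48%.

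The members named here were chosen for no overlap between the compared groups. That they were high in all 3 YJM789 4NQO libraries follows from this choice. TPI1, the triose phosphate isomerase of glycolysis (IV 555830 to 556436), had a rise of 79.5, 70.3 and 50.3 there, 18.6, 26.1 and 19.6 in YJM789 in YPD, 25.2, 26.6 and 21.4 in S96 in 4NQO and 26.1, 14.5 and 23.9 in S96-I775E in 4NQO. PMT1, a protein mannosyltransferase of the endoplasmic reticulum (IV 286972 to 287475), had 76.0, 73.4 and 73.2, against 30.6, 22.9 and 16.4 in YPD and 12.2, 17.8 and 32.9 in S96 in 4NQO. The groups did not overlap at either gene. SPI1, a cell wall protein induced under stress (V 468379 to 468793), had 62.4, 57.8 and 44.6 against 9.0, 16.0 and 16.7 in S96, and VMA3 (V 100710 to 101639) had 82.7, 59.1 and 94.9 against 35.1, 27.2 and 21.1. Each of these 4 genes had a MACS2 peak in 1 library of the group only, with folds of 1.47, 1.9, 1.86 and 1.92. The log2 differences from S96 were 1.4 for TPI1, 1.89 for PMT1, 1.94 for SPI1 and 1.47 for VMA3, and those of TDA4, CTF19, BAG7 and MXR2 were 1.79, 1.72, 1.47 and 1.37. From YPD they were 1.58, 1.67, 1.46 and 1.39 in the same order of the first 4, with HUA1 at 1.47 and CYC3, which attaches heme to cytochrome c, at 1.35. For S96-I775E minus YJM789 in 4NQO they were −1.99 for SPI1 (SE 0.34), −1.65 for VMA3 (SE 0.36) and −1.61 for TPI1 (SE 0.3).

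The strongest points at these genes coincided within the group. TDA4 had its strongest point at 447, 447 and 448 bp from the start codon in the 3 YJM789 4NQO libraries, SPI1 at 198, 194 and 171 bp, VMA3 at 127, 116 and 112 bp and TPI1 at 346, 361 and 324 bp. In S96 in 4NQO the TDA4 points were at 422, 24 and 503 bp. Over the 9 comparisons of 2 groups there were 74 calls at 47 coding regions. In 51 of 73 calls with 3 points the higher group's points lay within 50 bp, with a median range of 28.0 bp. In the lower group this held for 3 of 73, with a median range of 356.0 bp. Over all coding regions with 3 points the share within 50 bp was 10.2% (S96 in 4NQO) to 25.5% (S96 in YPD). The rise that made the calls is measured at these points, so the contrast is a description and no separate support. Comparisons with YJM789 in 4NQO gave 10, 17 and 14 of the 74 calls. VMA3 was called with a different place in each high group, 127, 116 and 112 bp in YJM789 in 4NQO and 472, 501 and 470 bp in S96 in YPD. YGR079W had 1123, 1120 and 1124 bp in S96 in YPD and 486, 448 and 487 bp in S96-I775E in 4NQO.

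The YJM789 4NQO counts moved with single libraries. Whether they moved more than those of all regions is not given here. Without replicate 3, 31 coding regions were higher than in YPD and 31 higher than in S96 in 4NQO, and 43 were lower in S96-I775E. With replicate 3 alone there were 0, 1 and 2, but a group of 1 library makes few calls by construction and its spread was taken from the other groups. Without replicate 1 or 2 the count against YPD was 8 or 7, and that of S96-I775E 9 or 6. The count against YPD was also 6 without YPD replicate 1 and 7 without YPD replicate 3, and that of S96-I775E was 11 without S96-I775E replicate 1 and 7 without replicate 2. PMT1 and TPI1 were called against YPD and against S96 whichever library was left out. Both met the rule through a peak in YJM789 4NQO replicate 1, so this is a description and no independent support.

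The difference between alleles in the response to 4NQO was fitted directly, and for YJM789 its values are a description for the same reason as above. The response was higher with YJM789 than with S96 at 16 coding regions (4.32%) and lower at 0, with 3.56% and 0.37% of all regions and medians of 0.5 and 0.36. With S96-I775E it was higher than with S96 at 6 (1.62%) and lower at 0, with 1.93% and 0.667% of all regions and medians of 0.3 and 0.21. Both use the same S96 libraries. At UTH1 the response exceeded that of S96 by 1.9 on the log2 scale with YJM789 (SE 0.43) and by 1.61 with S96-I775E (SE 0.43, adjusted p = 0.0383). In YJM789 the rise of UTH1 was 21.3, 31.9 and 25.4 in YPD and 46.2, 43.6 and 26.5 in 4NQO, which overlap. TPI1 and VMA3 each exceeded it by 2.42 with YJM789 (SE 0.42 and 0.51), and YGR079W by 2.2 with S96-I775E (SE 0.43, adjusted p = 0.00713). In S96 the rise of TPI1 was 38, 43.7 and 51.8 in YPD and 25.2, 26.6 and 21.4 in 4NQO, a difference of −0.84 (SE 0.3, adjusted p = 0.116). With library medians set equal the counts were 2 higher and 0 lower with YJM789 (all regions 0.37% each) and 3 and 0 with S96-I775E (0.444% and 0.963%). On coverage the S96-I775E response turned, with 5 higher (1.35%) and 29 lower (7.84%), and 2.89% and 5.56% of all regions. With medians equal these were 11 (2.97%) and 12 (3.24%), with 6.96% and 2.44% of all regions. Without YJM789 4NQO replicate 1, 2 or 3 the YJM789 count was 8, 6 or 33, without YJM789 YPD replicate 1 or 3 it was 7 or 9, without S96 YPD replicate 3 it was 5 and without S96 4NQO replicate 1 it was 10. The S96-I775E count was 3 without S96 YPD replicate 3 or S96-I775E YPD replicate 2, and 2 without S96 4NQO replicate 3.

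**Figure D5:**
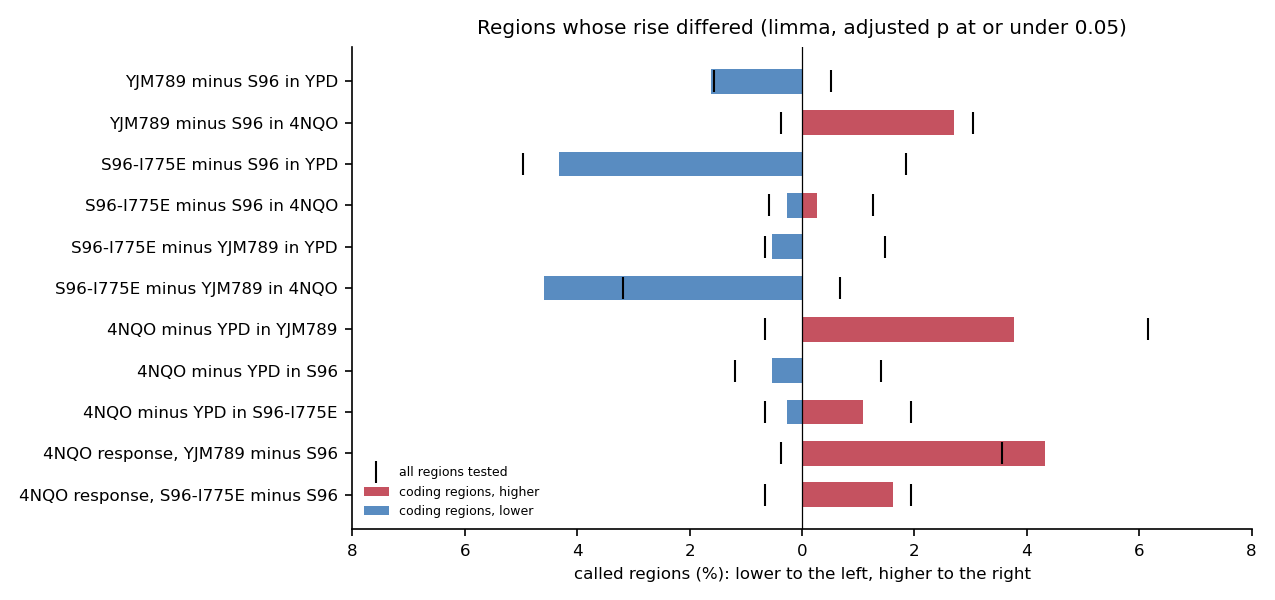
Percentage of the 370 tested coding regions whose rise was called higher (right) or lower (left) in each of 11 comparisons (bars), with the share of all 1350 tested regions as a black tick. The coding share lay above the tick of its direction for S96-I775E minus YJM789 in 4NQO (4.59% against 3.19%), for the YJM789 response (4.32% against 3.56%) and for YJM789 minus S96 in YPD (1.62% against 1.56%), and below it elsewhere. The comparisons with YJM789 in 4NQO use the libraries that chose most regions.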

How the data were processed

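Anti-Myc ChIP was sequenced in 18 libraries and input in 6. Per the submitters' processing notes, the build was sacCer3 and the tools MACS2 2.1.0, Bowtie2 2.2.3 and CASAVA 1.7, with no step given. Per the file headers, the deposited MACS2 peaks carry a pileup signal, a fold enrichment (a ratio) and −log10 values of p and q. The deposited CisGenome peaks, under 4 settings, carry a log2 fold change, a score and a p-value with a false discovery rate. The deposited region tables carry the ChIP minus input coverage signal at each region's strongest point and its rise over the surroundings. In every entry the rise equalled coverage minus background, with a largest departure of 1.0e-12. The sources used here do not say what separates the parameter sets mn and m2. The tables hold 18 further columns of values that were not used.

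The rise was tested in R 4.3.3 by limma 3.58.1, moderated with a mean-variance trend, on log2(rise + 1), all 6 groups in 1 fit, with Benjamini-Hochberg adjustment over the 1350 regions that had 2 or more values in all groups. Empty entries stayed missing. The fit was tested on simulated data with 200 changed regions. Codon adaptation, GC content and motif matches came from the R64 annotation. The alternatives were library medians set equal, empty entries as 0, a pseudocount of 10, the m2 set, no filter, only the compared groups, a replicate block and each library left out. Chosen after seeing the data were coverage in place of the rise, that with medians equal, and YJM789 4NQO replicate 3 alone. Named were the 20 regions with peaks in the most libraries, up to 8 called regions per comparison and direction without overlap between groups, list genes with a peak in at least 2 libraries of a group, and up to 8 regions with a recognition match by mean rise. Others are named as examples of a count and were chosen after their values were seen. The regions, gene lists and naming rule were chosen with earlier results of these data known.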

Additional observations from a re-analysis of the deposited data

Results flagged for a closer look

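The response to 4NQO is listed here for 14 results, as the log2(rise + 1) difference from the response of S96. For YJM789 the values are a description with no test, since its 4NQO libraries chose most regions. They were 2.49 for SPI1, 2.42 for TPI1, 2.42 for VMA3, 2.2 for TAE1, 2.13 for TDA4, 2.0 for MXR2, 1.9 for UTH1 and 1.83 for CBR1. With S96-I775E the response differed by the direct limma test (adjusted p at most 0.05), by 2.2 for YGR079W, 2.12 for YPL113C, 2.09 for TDH2, 1.83 for NAT2, 1.72 for NCW2 and 1.61 for UTH1. All 14 rest on the same S96 libraries.

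The reverse MACS2 test, which no comparison uses, called input above ChIP in at least 2 S96 YPD libraries at 78 coding regions. In the other groups no library had more than 18 such regions, the highest being YJM789 YPD replicate 2. No share of all regions stands beside these counts, so they are not read as particular to coding regions.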

How the results depend on the processing

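The rise is known per library only as a coverage difference against 1 input per group, without read counts, so differences as small as the spread of 3 libraries were not detectable, and no alternative here replaces the input. Of 63 named differences, 19 were called in each fit that omitted a library. Under all alternatives but coverage and replicate 3 alone, 5 were called: PMT1 and TPI1 for 4NQO minus YPD in YJM789, UTH1 and YGR079W for S96-I775E minus S96 in YPD, and VMA3 for the YJM789 response (UTH1 had no test in the m2 set). For PMT1, TPI1 and VMA3 this is a description, since a peak of YJM789 in 4NQO chose these regions. All 63 kept the call without the filter and with a pseudocount of 10. The cause was not tested for any change below, except that replicate 3 alone is a group of 1 library, whose spread is assumed to be that of the other groups.

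Counts of called coding regions follow as the reported count and then the alternatives. They show how far each count moved and are not set against the share of all regions. For YJM789 minus S96 in YPD, 6 became 1 with medians equal, 10 with empty entries as 0, 1 in the m2 set, 28 on coverage and 50 on coverage with medians equal, both with more higher than lower, and 0 to 9 with a library left out. For YJM789 minus S96 in 4NQO, 10 became 3 with empty entries as 0, 17 with a pseudocount of 10, 6 with only the compared groups, 1 with replicate 3 alone, 140 on coverage, 60 on coverage with medians equal, and 7 to 31 with a library left out. For S96-I775E minus S96 in YPD, 16 became 7 with medians equal, 25 with empty entries as 0, 173 on coverage and 94 on coverage with medians equal, the last pair reversed, and 7 to 17. For S96-I775E minus S96 in 4NQO, 2 became 0 with empty entries as 0, 14 and 19 on coverage, and 0 to 2. For S96-I775E minus YJM789 in YPD, 2 became 0 in the m2 set, 33 and 12 on coverage, both reversed, and 0 to 1. For S96-I775E minus YJM789 in 4NQO, 17 became 11 with medians equal, 2 with empty entries as 0, 7 in the m2 set, 5 with only the compared groups, 2 with replicate 3 alone, 74 and 31 on coverage, and 6 to 43.

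For 4NQO minus YPD in YJM789, 14 became 9 with medians equal, 9 with empty entries as 0, 6 with only the compared groups, 0 with replicate 3 alone, 280 and 115 on coverage, and 6 to 31. In S96, 2 became 15 with empty entries as 0, reversed, 5 with a pseudocount of 10, 6 in the m2 set, 4 with only the compared groups, 155 and 88 on coverage, both reversed, and 1 to 3. In S96-I775E, 5 became 3 with medians equal, 0 with empty entries as 0, 1 in the m2 set, 3 with only the compared groups, and 0 to 4. For the YJM789 response, 16 became 2 with medians equal, 0 with replicate 3 alone, 29 on coverage, and 5 to 33. For the S96-I775E response, 6 became 3 with medians equal, 1 in the m2 set, 34 on coverage, reversed, and 2 to 6. On coverage with medians equal it became 23, split into 11 higher and 12 lower.

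The number of regions whose group had peaks in 2 or 3 libraries went from 138 to 16 at a fold of at least 2 in YJM789 in 4NQO (4 to 138 with a library left out), from 2 to 0 in S96 in YPD (5 in the m2 set; 0 to 2), from 12 to 0 in S96 in 4NQO (19; 2 to 9), from 5 to 0 in S96-I775E in YPD (8; 0 to 4) and from 6 to 0 in S96-I775E in 4NQO (1 to 4). Among named differences, S96-I775E minus S96 in YPD turned to 16.83 and 6.22 for NAT2 and to 13.73 and 3.12 for GFD2 on coverage without and with medians equal. The response of MXR2 turned to −7.87 with medians equal and that of NAT2 to −1.63 on coverage.

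The growth protocol splits each culture between the media, but same-numbered libraries correlated between −0.040 and 0.062 in their deviations over regions, so the numbers were not taken as pairs. With a replicate block, 5 of 63 named differences lost their call, and the S96-I775E response count went from 6 to 3, while no other count moved by over 1.5 times.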
